A study of Mus musculus with 6 samples.

Results

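The replication-dependent histone gene clusters of the mouse were examined as 3 windows of the GRCm39 genome. These were chr13:21890000-22260000 (370 kb), chr13:23500000-24000000 (500 kb) and chr3:96120000-96220000 (100 kb). Peaks of all 6 libraries were joined into one region wherever they overlapped by at least 1 bp, and every region touching a window was taken. This gave 252 of the 259376 merged mouse regions: 101 in the first window, 124 in the second and 27 in the third. The choice used position only, so no measured height entered it.

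E14TG2a cells, a line of mouse embryonic stem cells, were profiled by ATAC-seq, which reads out open chromatin through the sites a transposase can reach. The 3 genotypes were WT, Alkbh5 KO and Alkbh5 del-cIDR, an Alkbh5 allele lacking a stretch named cIDR (IDR is short for intrinsically disordered region). Each genotype had 2 libraries. All 3 genotypes were grown alike, in 15% serum with LIF at 1000 U/ml, the MEK inhibitor PD0325901 at 1 µM and the GSK3 inhibitor CHIR99021 at 3 µM, and 10 µl of spike-in nuclei was added to each library's cells. The labels do not say whether the 2 libraries of a genotype came from separate cultures or how many clones each mutant stands for. ALKBH5 removes N6-methyladenosine from RNA. The comparisons asked how loss of the protein, or of its cIDR, went with chromatin accessibility at the histone clusters. Peaks were not assigned to genes, because the gene table used here is on another build, so neither the Alkbh5 locus nor embryonic stem cell markers were checked. That the 3 windows hold the histone genes was taken from the choice of windows and was not checked. Whether other genes lie in them was not checked either. Below, the clusters means these windows, and no region is tied to a histone gene.

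Replication-dependent histone genes supply the core histones H2A, H2B, H3 and H4 and the linker histone H1 while DNA is copied. They have no introns, and their messages end in a stem-loop bound by SLBP instead of a poly(A) tail. NPAT, a target of cyclin E and CDK2, gathers with the clusters in histone locus bodies and drives their transcription in S phase. Many H2A and H2B genes lie head to head and share one promoter. NF-Y binds the CCAAT box, OCT1 the octamer of H2B promoters, and HINFP an element of H4 promoters, while the AAACACA box marks H1 promoters.

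The RefSeq gene table, on GRCm38.p6, listed 64 replication-dependent histone genes, 54 on chromosome 13 and 10 on chromosome 3. They comprised 6 H1, 18 H2A, 16 H2B, 12 H3 and 12 H4 genes. Promoter sequence was at hand for 58 of them, in 59 windows of 300 bases (250 before the start and 50 after it). The sequences below show 1 promoter of each class, chosen for the number of different motifs it holds, and all come from RefSeq on GRCm38.p6, chromosome 13. The first is the 179 bases between the starts of H2bc8 and H2ac8, on the plus strand. The others are the 250 bases before the start of H1f3 and H4c4 (plus strand) and H3c11 (minus strand). On either strand, capitals mark the TATA box (TATAAA), the NF-Y box (CCAAT), the octamer (ATTTGCAT), the H1 box (AAACACA) and the core of the H4 element (GTCCG).
H2bc8 and H2ac8: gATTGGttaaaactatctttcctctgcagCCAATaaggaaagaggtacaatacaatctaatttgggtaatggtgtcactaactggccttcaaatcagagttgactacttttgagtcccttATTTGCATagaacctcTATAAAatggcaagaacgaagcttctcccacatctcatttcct
H1f3: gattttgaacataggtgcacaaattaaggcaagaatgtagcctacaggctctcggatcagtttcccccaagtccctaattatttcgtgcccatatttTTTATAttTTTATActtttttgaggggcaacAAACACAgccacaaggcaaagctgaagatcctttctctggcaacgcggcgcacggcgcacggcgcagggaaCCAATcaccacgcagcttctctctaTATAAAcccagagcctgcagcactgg
H3c11: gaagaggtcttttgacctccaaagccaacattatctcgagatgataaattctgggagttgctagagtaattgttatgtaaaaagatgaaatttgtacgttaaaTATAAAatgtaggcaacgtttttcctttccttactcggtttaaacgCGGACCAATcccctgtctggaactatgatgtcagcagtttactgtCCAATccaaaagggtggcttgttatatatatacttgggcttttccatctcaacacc
H4c4: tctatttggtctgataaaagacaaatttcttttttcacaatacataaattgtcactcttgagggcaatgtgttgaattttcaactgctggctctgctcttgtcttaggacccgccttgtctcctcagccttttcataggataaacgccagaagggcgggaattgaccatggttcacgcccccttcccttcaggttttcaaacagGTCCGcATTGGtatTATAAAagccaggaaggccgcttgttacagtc

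In the stretch shared by H2bc8 and H2ac8, a CCAAT box stands on each strand at the H2ac8 side, and an octamer and a TATA box stand together at the H2bc8 side. In H1f3 the H1 box lies 122 bases before the start, the CCAAT box 51 and the nearest TATA box 26. The H4c4 promoter packs the H4 element, a CCAAT box and a TATA box into one short run, 46, 40 and 32 bases before the start. In H3c11 the GTCCG match, read on the opposite strand, overlaps a CCAAT box, giving the run CGGACCAAT. The TATAAA match of H3c11 lies 147 bases before the start. These matches are letters in a window and were not measured as bound sites.

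CCAAT (either strand) was found in all 6 H1, 17 H2A, 15 H2B and 10 H3 promoter windows searched, and in 3 of 11 H4 windows. Over the histone genes this made 51 of 59 windows (86.4%), against 37.4% of all 32851 RefSeq promoter windows of the same length. These counts take in the bases after the start, where the only CCAAT match of H3c14 and of H3c15 lay. At least 2 matches were present in 42 histone windows (71.2%), against 11.7% of all promoters. TATAAA was found in 34 histone windows (57.6%), against 13.6%, and ATTTGCAT in 13 (22%), against 1.74%. Where TATAAA lay before the start, the nearest match was at a median of 27.5 bases in H1, 33 in H2A and 31.5 in H3. In H2B it was at 190 and in H4 at 127, so many matches do not stand where a TATA box of that gene would. The octamer matches lay in 7 H2B and 6 H2A windows and in no H1, H3 or H4 window. Windows of head-to-head pairs overlap, so a single site can be counted for both genes, in these and the other shares. This was so for the octamers of H2bc8 with H2ac8, H2bc12 with H2ac12 and H2bc1 with H2ac1. AAACACA was present in 5 of 6 H1 windows, against 7.18% of all promoters. GTCCG was present in 11 of 11 H4 windows, against 23.4%, and also in 41.2% of H2A and 33.3% of H2B windows. In H4c2 its only match lay after the start. The motif AAACACA and the motif GTCCG were added to the search later than the other 3.

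Outside the clusters, genes of the histone supply system were looked up from a list of 20, among them Npat, Slbp, Casp8ap2, Lsm10 and Lsm11, and 16 were matched in 20 promoter windows. Of these windows 7 (35%) held CCAAT, 2 held TATAAA and 13 (65%) held GTCCG. The replication-independent histone genes, such as H3f3a, H3f3b and H2az1, can make histones outside S phase too. Their list of 10 had 9 matches, of which 6 held CCAAT, 2 held TATAAA, 5 held GTCCG (55.6%) and 1 held the octamer.

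**Figure D1:**
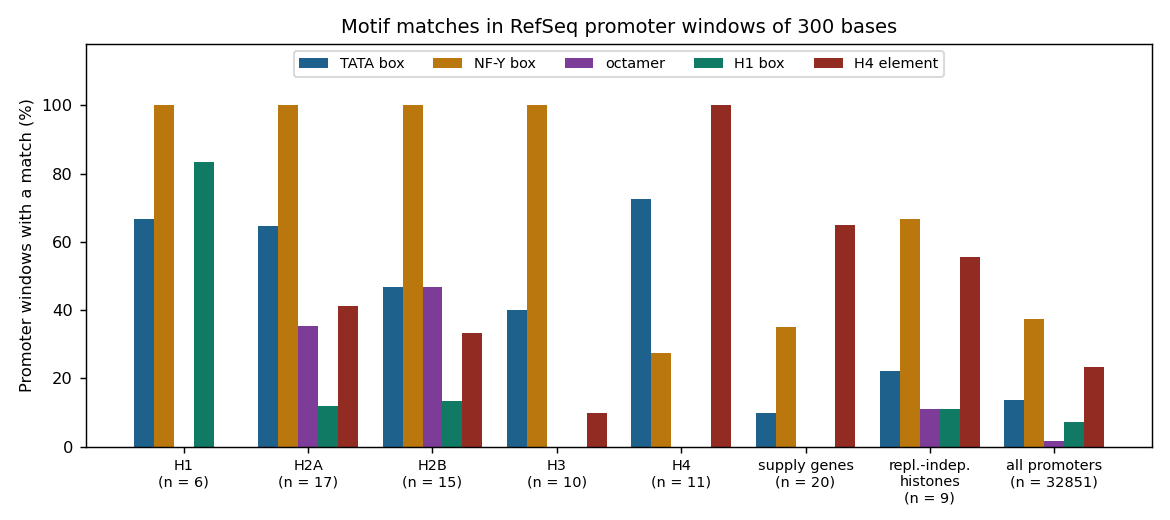
Share of RefSeq GRCm38.p6 promoter windows of 300 bases (y axis, %) with a match to each of 5 motifs, by histone class, for the 2 other gene lists and for all promoters (x axis, with the number of windows). CCAAT reached 100% in H1, H2A, H2B and H3, and the H4 element reached 100% in H4. Matches after the start count too, and were the only ones for CCAAT in H3c14 and H3c15 and for the H4 element in H4c2.

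Shared promoters are common among these genes. RefSeq windows of 9 neighbouring H2A and H2B pairs (18 genes) overlapped on opposite strands, which takes in 9 of the 17 H2A and 9 of the 14 H2B genes with a promoter sequence. For 8 of these pairs the stretch between the starts could be read, and it was 163 to 248 bases long, with a median of 178. A peak there cannot be given to either gene alone. Stretches were also shared between genes that do not form such a pair with each other: 6 pairs, with 11 genes, shared a run of at least 50 identical bases. H2ac23 and H2bc23 are among these 11 and also among the 18 above. The longest runs were 285 bases between H4c17 and H4c18, 233 between H2bc23 and H2ac24, 231 between H3c14 and H3c15 and 219 between H2ac18 and H2ac19, and the shortest was 72, between H4c11 and H4c12. Reads from such stretches may not have been placed at one site, and how the authors treated them is not given in the sources used here.

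The lists held 150680 to 193905 mouse peaks per library, with WT replicate 1 the longest and KO replicate 2 the shortest. The fold and p deposited with each peak give back its summit height, the number of overlapping tags at the summit. Genome-wide background came to 1.09 and 1.18 tags for WT, 1.26 and 1.01 for KO, and 1.14 for each del-cIDR library. Total read counts are not analysed here. A region missing from a list can be open below the calling limit, which was a q of 0.05 in every list. With 2 libraries against 2, an exact two-sided permutation test cannot give a p below 0.333, so no test was run, and differences were described by the spread of the libraries and by whether the groups overlap. The SDs cover 2 libraries each and may be technical only. In bulk cells, fewer cells open at a site and less opening in each cell cannot be told apart.

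The clusters were dense in peaks in all 3 genotypes. Peaks numbered 230 and 218 in the WT libraries, 206 and 189 (KO) and 210 and 201 (del-cIDR). This came to 23.1 ± 0.875 peaks per 100 kb in WT (SD, n = 2), 20.4 ± 1.24 in KO and 21.2 ± 0.656 in del-cIDR. Over the whole of chromosomes 13 and 3 the same lists held 6.75 ± 0.299, 5.39 ± 0.311 and 5.54 ± 0.0827 peaks per 100 kb. The 2 WT values lay above the 4 mutant values in the pooled windows and over both chromosomes. Taken singly, this held in the first window only. In the second, del-cIDR replicate 1 held 105 peaks and WT replicate 2 held 101. On chromosome 3, KO replicate 1 held 24 peaks, against 23 and 22 in WT.

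Covered length separated the genotypes less than peak number. Peaks covered 9.40% ± 0.218 of the windows in WT, 9.35% ± 0.213 in KO and 9.57% ± 0.0230 in del-cIDR, with the WT libraries (9.56% and 9.25%) overlapping those of either mutant. On chromosomes 13 and 3 together the share was 2.30% ± 0.103, 2.00% ± 0.0749 and 2.06% ± 0.00845. The median distance from one summit to the next was 2785 ± 73.5 bp in WT, 3165 ± 207 bp in KO and 3069 ± 116 bp in del-cIDR, against 7038, 8788 and 8325 bp over both chromosomes. Spacing was shorter in both WT libraries than in any mutant library, in the pooled windows and over both chromosomes. Taken singly, only the first window showed this. In the second, KO replicate 1 had 2875 bp and WT replicate 1 had 2893 bp. On chromosome 3, KO replicate 1 had 3927 bp, below WT at 4225.5 and 3968 bp.

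Without matching for height, regions in the clusters were called in more libraries than regions at large. All 6 libraries called 156 of the 252 (61.9%), against 38.3% of all merged regions. The share was 61.4% in the first chromosome 13 window (62 regions), 61.3% in the second (76) and 66.7% on chromosome 3 (18). A call in 1 library only was seen for 37 regions (14.7%), against 25.2% of all regions, and WT replicate 1 alone held 15 of the 37. These single calls were narrow, with a median merged width of 149 bp, against 515 bp for the regions called in all 6. Of the 16 regions with 5 calls, 8 (50%) lacked KO replicate 2, the shallowest library, against 35.2% of all regions with 5 calls.

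**Figure D2:**
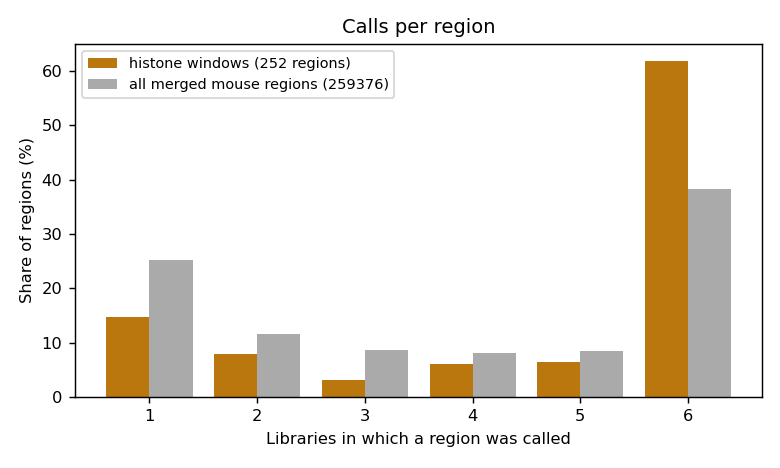
Share of regions (y axis, %) by the number of libraries that called them (x axis), for the 252 regions of the histone windows and all 259376 merged mouse regions. In the histone windows 61.9% were called in all 6 libraries and 14.7% in 1.

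Open regions were unevenly spread along the windows. Counted in bins of 50 kb, the regions called in all 6 libraries peaked at 16 in chr13:23600000-23650000 and 15 in chr13:23700000-23750000. In the first chromosome 13 window the fullest bins were chr13:22090000-22140000 with 13 and chr13:22190000-22240000 with 12. Only 2 lay in chr13:23800000-23850000 and 2 in chr13:23950000-24000000. At the window edges, the outermost members ranged from chr13:21894189-21895501 (52 to 75 tags, called in all 6) to chr13:23990503-23990771 (9 and 10 tags, called in 2). Just outside lay regions such as chr13:23492947-23493975 (54 to 71 tags, called in all 6) and chr13:21847358-21847513 (6 tags, called in 1). One member, chr3:96219482-96220175, reached past the window's end.

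Summits in the clusters were tall. Over the 156 regions called in all 6 libraries, the median summit was 73.5 and 79.5 tags (WT), 84.5 and 64.5 (KO) and 75 and 76 (del-cIDR), against 26 to 36 tags over all 99216 regions called in all 6. Ranked within each list over those 99216 regions, the median member stood at percentile 82.2 to 84.0. The local background around the members was high too, 6.78 to 8.57 tags against 1.79 to 2.26. The deposited fold, which divides height by that background, was therefore lower than elsewhere: its median was 8.49 to 9.69 for the members and 9.26 to 10.9 over all.

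The tallest regions reached more than 200 tags. In the first window chr13:22121070-22121595 averaged 224 ± 26.6 tags (SD over 6 libraries), chr13:22219554-22220612 averaged 204 ± 24.2 and chr13:22049296-22050533 averaged 196 ± 22.7. In the second window chr13:23719036-23719881 averaged 208 ± 21.6 and chr13:23584921-23586545 averaged 190.2 ± 28.1. On chromosome 3, chr3:96146336-96146572, only 237 bp wide, averaged 218 ± 24.0, and its neighbour chr3:96147503-96147913 averaged 205.5 ± 37.1. At the low end, chr3:96211646-96212125 averaged 11 ± 2.10 and chr13:23528889-23529825 averaged 13.5 ± 2.51. Most of these tall regions were wider than the members' median merged width of 515 bp, the tallest only just, at 526 bp. The 2 on chromosome 3, at 237 and 411 bp, were narrower.

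**Figure D3:**
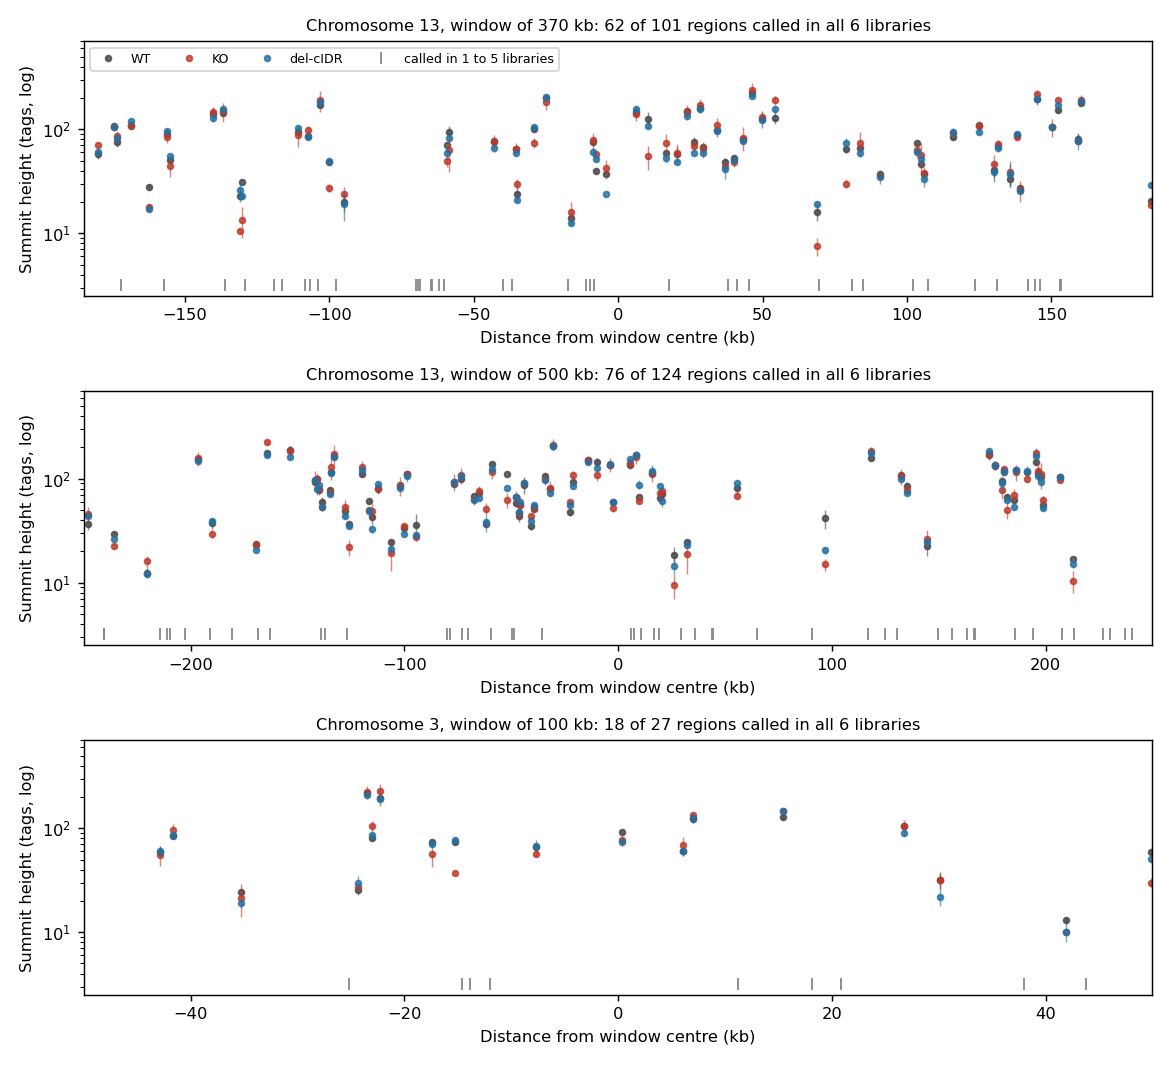
Summit height (y axis, tags, log scale) of the regions called in all 6 libraries along each window (x axis, distance from the window centre in kb); points are means of 2 libraries, thin bars join the 2 values, and grey ticks are regions called in 1 to 5 libraries. Heights span 11 to 224 tags on average, and the 3 genotypes lie close together at most regions.

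The median peak width per library was 370.5 to 424.5 bp in the clusters, against 401 to 417 bp elsewhere, and the median merged width of the regions called in all 6 was 515 bp, against 555 bp. By genotype the median was 407.5 ± 9.19 bp in WT, 377.5 ± 9.90 bp in KO and 411 ± 18.7 bp in del-cIDR. Both KO libraries (384.5 and 370.5 bp) lay below the other 4 (398 to 424.5 bp), by less than the SD of del-cIDR at the nearest pair. Over all regions KO replicate 1, at 410 bp, lay among the other genotypes (407 to 417 bp) and KO replicate 2, at 401 bp, below them. A merged width of at least 1000 bp was seen in 30 of the 156 (19.2%), against 11.4% of all regions called in all 6, and the widest, chr13:23595521-23597559, spanned 2039 bp. The highest summit of a region moved by a median of 57.5 bp across the 6 libraries, against 69 bp over all, and stayed within 50 bp in 68 of the 156 (43.6%, against 32.8%).

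To compare genotypes, each height was expressed in log2 relative to its own list's median over the 99216 regions called in all 6. The median member lay 1.17 ± 0.0401 above that median in WT (SD, n = 2), 1.31 ± 0.00187 in KO and 1.28 ± 0.0135 in del-cIDR. Both mutants were thus slightly higher than WT on this scale, with no overlap between the WT libraries (1.20 and 1.14) and the 4 mutant libraries (1.27 to 1.31). By rank in the same lists this did not hold for KO: the median member stood at percentile 83.4 and 82.2 (WT), 83.0 and 82.7 (KO), and 83.4 and 84.0 (del-cIDR). Taken singly, only the second window kept both mutants above WT in relative height. In the first, del-cIDR (1.14 and 1.03) did not lie above WT (1.14 and 1.14). On chromosome 3, KO (1.19 and 1.04) and del-cIDR (1.20 and 1.26) overlapped WT (1.25 and 1.05). A height relative to its own list's median cannot show a change common to all regions. Without overlap is used below for a region whose 2 libraries of one genotype both lie above, or both below, the 2 of the other.

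From WT to KO the relative height was higher at most members. The median difference over the 156 regions was 0.19 log2 (quartiles 0.05 and 0.30), against 0.08 over all regions, and 119 of 156 (76.3%) were above 0, against 57.7%. KO lay above WT without overlap in 85 regions (54.5%, background 36.5%) and below in 22 (14.1%, background 23.5%). Differences of at least 0.5 log2 without overlap were found in 11 regions in the higher direction (7.05%, background 13.8%) and 14 in the lower (8.97%, background 11.4%). Most members were thus shifted by little. Large shifts were a smaller share than over all regions without regard to height, and the shares at like height are given below. Which direction held more of them changed with the processing: 13 were higher and 12 lower when scaled to autosomes other than 6, 8 and 11, 15 and 12 without WT replicate 1, and 14 and 12 without KO replicate 2. The medians of the 3 windows were alike, at 0.18, 0.20 and 0.17. On the deposited fold in place of height, the median difference was 0.0626, with 3 regions higher and 9 lower by at least 0.5 log2.

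Over all regions the KO difference varied with height. The median KO minus WT difference was 0.13 below 10 tags, where no member lies, 0.01 at a mean height of 20 to 50 tags, 0.14 at 50 to 100 and 0.27 at 100 tags or more. Members in the last 3 of these classes had medians of 0.17 (34 regions), 0.15 (65) and 0.22 (50), with no steady rise. The 7 members of 10 to 20 tags had a median of -0.55, against 0.02 for all regions of that height. Of the members 32.1% were in the tallest class, against 10.3% of all regions, so the members' higher overall median is to be read beside these values. At 50 tags or more the members' medians lay close to those of all regions of like height. Large downward shifts, read at like height, were found in 4 of 7 members at 10 to 20 tags (13.2% of all regions there), 5 of 34 at 20 to 50 (14.4%), 5 of 65 at 50 to 100 (7.8%) and 0 of 50 above that (1.85%). Large upward shifts numbered 1, 4, 3 and 3 in the same classes, against 15.1%, 12.6%, 13.9% and 15.3% of all regions.

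**Figure D4:**
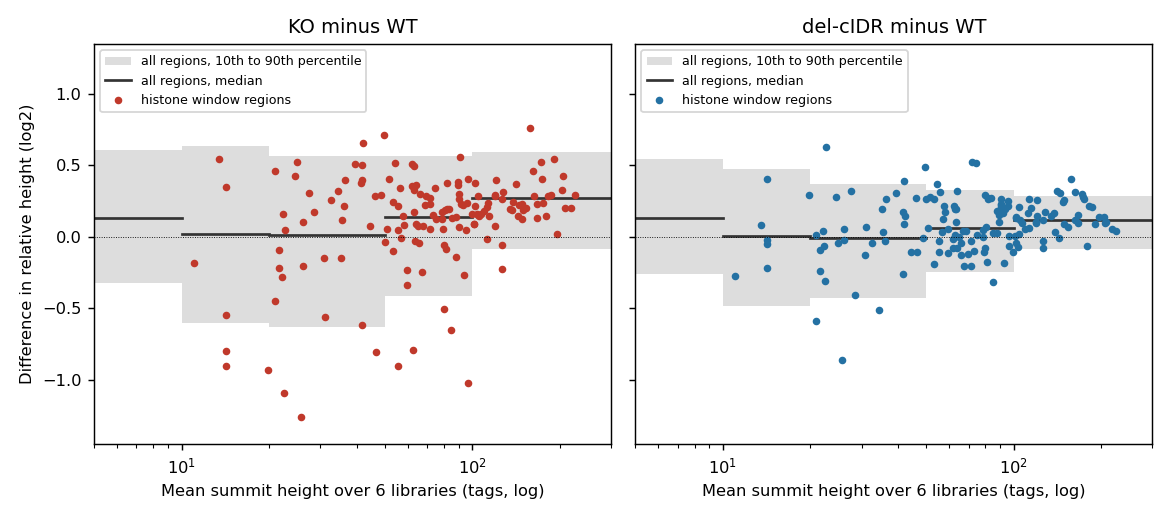
Difference in relative height (y axis, log2) from WT to KO (left) and from WT to del-cIDR (right) for the 156 members, by mean height (x axis, tags, log scale), over the median and the 10th to 90th percentile of all regions in the same height class. The tallest members lie near the median of all regions in both panels, and the largest KO differences are downward.

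From WT to del-cIDR the differences were smaller. Their median was 0.09 log2, against 0.04 over all regions, and 107 of 156 (68.6%) were above 0, against 55%. Del-cIDR lay above WT without overlap in 51 regions (32.7%, background 26.3%) and below in 13 (8.33%, background 19.9%). By at least 0.5 log2 it lay above in 3 (1.92%, background 4.56%) and below in 3 (1.92%, background 5.47%). These backgrounds are without regard to height. At 10 to 20, 20 to 50, 50 to 100 and 100 tags or more there were 7, 34, 65 and 50 members. Of these, 0, 1, 2 and 0 lay above, against 8.21%, 4.35%, 2.15% and 0.843% of all regions. Below lay 0, 3, 0 and 0, against 8.57%, 6.72%, 1.75% and 0.147%. By class, in the same order, the members' medians were -0.0190, -0.000349, 0.0525 and 0.13. Over all regions they were 0.0050, -0.00574, 0.0590 and 0.12. From 20 tags up the members' medians thus lay close to those of all regions of like height. On the deposited fold the median over all members was 0.00508.

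Between the 2 mutants, del-cIDR was lower than KO by a median of 0.10 log2 (value -0.10, against -0.05 over all). It lay above KO without overlap in 30 regions (19.2%, background 24.9%) and below in 58 (37.2%, background 33%). By at least 0.5 log2 it lay above in 11 (7.05%, background 11.5%) and below in 6 (3.85%, background 13.7%). In the same 4 height classes, 3, 5, 3 and 0 members lay above, against 13.3%, 13.9%, 8.64% and 3.14% of all regions. Below lay 0, 5, 1 and 0, against 14.6%, 14.5%, 12.3% and 12%. The 3 comparisons share libraries pairwise, so their values are given side by side and were not counted as repeats of each other.

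The 14 regions that were lower in KO by at least 0.5 log2 lay in all 3 windows, 7, 5 and 2 of them, with mean heights of 14.2 to 96.2 tags. The largest difference was at chr13:23846453-23846940, a region of 488 bp in the sparse stretch of the second window. Its summit held 33 and 50 tags (WT), 17 and 13 (KO) and 19 and 22 (del-cIDR). WT averaged 41.5 ± 12.0 tags (SD, n = 2), KO 15 ± 2.83 and del-cIDR 20.5 ± 2.12. The difference from WT was -1.26 in KO and -0.86 in del-cIDR, so all 4 mutant libraries lay below both WT libraries.

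A neighbouring group lay in the first window. At chr13:21944258-21945046 the heights were 31 and 31 tags (WT), 18 and 9 (KO) and 21 and 25 (del-cIDR), a KO difference of -1.09. At chr13:21943784-21944186, beside it, they were 26 and 20 (WT), 11 and 10 (KO) and 31 and 21 (del-cIDR), a KO difference of -0.93. Immediately after them, chr13:21945408-21945872 was called in WT (10 and 13 tags) and del-cIDR (14 and 9) and in neither KO library. These 3 adjoining regions were thus low or uncalled in KO, and in 2 of them the del-cIDR libraries overlapped WT in tags.

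Further along the same window, chr13:22085174-22085691 held 103 and 148 tags (WT), 69 and 41 (KO) and 105 and 111 (del-cIDR), a KO difference of -1.02 with del-cIDR at -0.06. The broad region chr13:22153138-22154720 (1583 bp) held 69 and 59 (WT), 33 and 27 (KO) and 82 and 64 (del-cIDR), a KO difference of -0.90. The low region chr13:22143611-22144039 held 19 and 13 (WT), 9 and 6 (KO) and 20 and 18 (del-cIDR), a KO difference of -0.91. In each of these the 2 KO libraries were lowest and del-cIDR overlapped WT in relative height.

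On chromosome 3, chr3:96154513-96154925 held 74 and 72 tags (WT), 38 and 36 (KO) and 76 and 79 (del-cIDR), a KO difference of -0.79. At the window's end chr3:96219482-96220175 held 57 and 62 (WT), 27 and 33 (KO) and 47 and 54 (del-cIDR), a KO difference of -0.80. In the second window chr13:23697630-23698179 held 111 and 110 (WT), 73 and 52 (KO) and 80 and 82 (del-cIDR), differences of -0.65 and -0.32. All 4 mutant libraries lay below WT at this last region, while at the first the del-cIDR libraries lay above WT.

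The other 5 lay between -0.80 and -0.50. Among them chr13:23775912-23776345 held 15 and 22 tags (WT), 12 and 7 (KO) and 12 and 17 (del-cIDR). At chr13:21974703-21975253 the values were 48 and 48, 30 and 25, and 50 and 49 in the same order. At chr13:22016207-22016468 the raw heights of WT (83 and 107) and KO (87 and 39) overlapped, and the groups separated only on the relative scale. In the other 13 regions both KO libraries were below both WT libraries in raw tags as well.

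**Figure D5:**
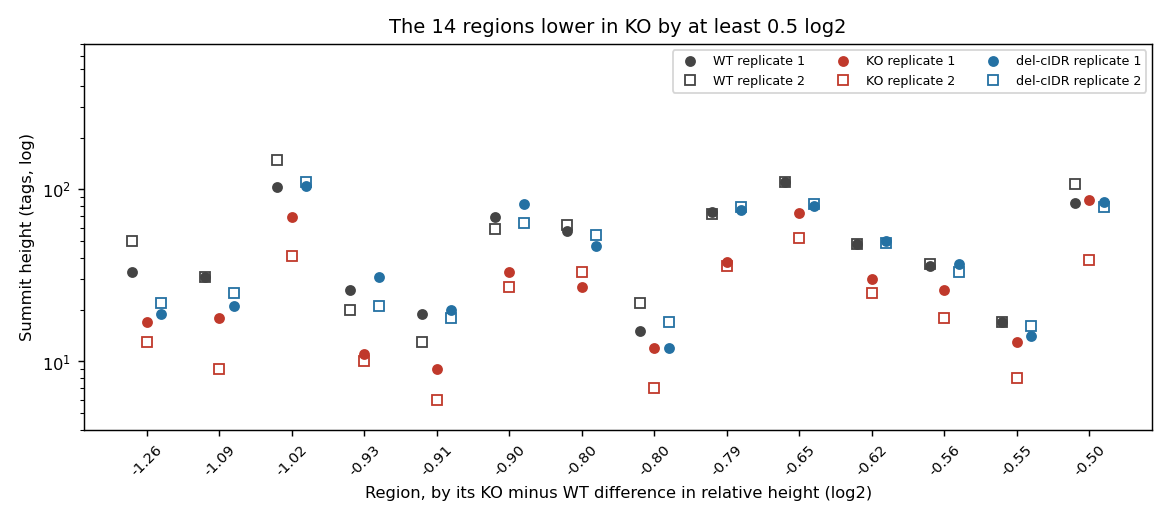
Summit height in every library (y axis, tags, log scale) of the 14 regions lower in KO by at least 0.5 log2 without overlap, ordered by the difference (x axis, log2); filled circles are replicate 1 and open squares replicate 2. Both KO libraries are lowest at most regions, and in 13 of 14 both lie below both WT libraries in raw tags.

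In the higher direction the largest KO difference was at chr13:22128848-22129879, a region of 1032 bp with 112 and 145 tags (WT), 210 and 170 (KO) and 142 and 168 (del-cIDR). Relative height was 1.91 ± 0.14 in WT, 2.67 ± 0.06 in KO and 2.32 ± 0.17 in del-cIDR, which is 0.76 higher in KO and 0.41 higher in del-cIDR. The next was chr13:22066988-22067379, with 39 and 41 tags (WT), 60 and 55 (KO) and 55 and 48 (del-cIDR), which is 0.71 and 0.49 higher than WT. The third was chr13:23687943-23688294, with 37 and 37 (WT), 58 and 45 (KO) and 45 and 31 (del-cIDR), which is 0.66 and 0.14 higher. In relative height all mutant libraries lay above WT at the first 2, and at the third the del-cIDR libraries spread across WT. Among the tallest members, chr13:23584921-23586545 was 0.54 higher in KO, with 174 and 177 tags (WT), 236 and 213 (KO) and 163 and 178 (del-cIDR). Of the 11 regions higher in KO by at least 0.5 log2, 8 separated from WT in raw tags as well. The rest did so only on the relative scale.

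The largest del-cIDR differences from WT were smaller. In the higher direction chr13:22259184-22259881 held 19 and 22 tags (WT), 18 and 19 (KO) and 27 and 31 (del-cIDR), which is 0.63 higher in del-cIDR. At chr13:23759831-23760101 the values were 66 and 67, 62 and 59, and 79 and 97 (0.53 higher), and at chr13:23769460-23770129 they were 62 and 68, 79 and 66, and 83 and 87 (0.52 higher). At the first 2 of these KO differed from WT by 0.05. In the lower direction, beside chr13:23846453-23846940, chr13:21912106-21913265 held 29 and 27 tags (WT), 19 and 17 (KO) and 16 and 18 (del-cIDR), a del-cIDR difference of -0.59. At chr13:22070755-22070959, only 205 bp wide, the values were 37 and 38, 51 and 33, and 24 and 24 (-0.51). This narrow region was lowest in del-cIDR alone, while the region at 21912106 was low in all 4 mutant libraries.

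Between the mutants, del-cIDR exceeded KO most at chr13:22143611-22144039 (1.31), chr13:21943784-21944186 (1.22) and chr13:22153138-22154720 (1.22), all given above among the regions lower in KO. It was lower than KO at chr13:22070755-22070959 (-0.83), at chr13:23634697-23634928 (-0.64, KO 57 and 41 tags, del-cIDR 35 and 30) and at chr3:96200022-96200261 (-0.58, KO 37 and 26 tags, del-cIDR 18 and 26). At this chromosome 3 region the raw heights of the mutants touched at 26 tags.

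Calls that separated genotypes were few. Both WT libraries and neither KO library called 11 of the 252 regions (4.37%, background 7.22%), and both KO and neither WT called 4 (1.59%, background 1.89%). For WT and del-cIDR the counts were 5 (1.98%, background 5.33%) and 1 (0.397%, background 0.931%). Both KO and neither del-cIDR called 6 (2.38%, background 3.5%), and both del-cIDR and neither KO called 7 (2.78%, background 3.59%). These shares were all below those over all merged regions, which were not matched to the members for height. The mutant lists were shorter than the WT lists, so losses and gains of calls are not on one footing: with all lists taken at one length, 7 regions were called in WT but not KO, 10 in KO but not WT and 4 in del-cIDR but not WT.

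Both WT libraries and no mutant library called 4 regions (1.59%, background 2.65%), all of 130 to 199 bp. At chr13:21968138-21968336 WT held 48 and 64 tags over a local background of 17.0 and 18.0, and the nearest peak in each mutant lay 471 to 473 bp away. At chr13:22120133-22120262 WT held 46 and 43 tags, at chr13:23612879-23613058 it held 55 and 52, and at chr13:23679815-23679966 it held 33 and 26. None of the 4 was faint in WT, with -log10 q of 5.58 to 14.7, and all stood on a raised local background of 7.50 to 18.7 tags. Both WT libraries and both del-cIDR libraries, but neither KO library, called 5 regions (1.98%, background 2.24%). The tallest was chr13:23610687-23610840, with 58 and 64 tags (WT) and 63 and 64 (del-cIDR), and the KO libraries' nearest peaks lay 324 and 327 bp away. Then came chr13:21970764-21971056 (36 and 35 (WT), 61 and 48 (del-cIDR)), chr13:23779312-23779887 (19 and 25, 19 and 17), chr13:23899298-23899853 (12 and 16, 12 and 11) and chr13:21945408-21945872, given above. The last 3 were low summits over a low background, whereas the first 2 stood on more than 12 tags of local background. WT and 1 del-cIDR library called the remaining 2 of the 11, chr13:22057467-22057916 (9 and 10 tags in WT) and chr13:22065212-22065567 (21 and 18).

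In the other direction, all 4 mutant libraries and neither WT library called 1 region (0.397%, background 0.194%). This was chr13:23714473-23714662, 190 bp wide, with 54 and 44 tags (KO) and 46 and 41 (del-cIDR), and the WT libraries' nearest peaks lay 438 and 400 bp away. Both KO libraries, but no WT or del-cIDR library, called chr13:23880106-23880384 (22 and 15 tags) and chr3:96144656-96145039 (24 and 23). The fourth, chr13:23912809-23913201, held 11 and 6 tags (KO) and, for del-cIDR, 8 tags, replicate 1 only. Apart from the first, these were low peaks.

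On chromosome 3, chr3:96180880-96181595 was called in both WT libraries (28 and 31 tags) and both KO libraries (35 and 34) and in neither del-cIDR library, whose nearest peaks lay 3260 and 3275 bp away. At 716 bp it was the widest region whose calls separated a pair of genotypes. The other regions called in KO but not del-cIDR were each also called in 1 WT library: chr13:22005578-22005814 (19 and 7 tags in KO), chr13:22176810-22177153 (19 and 15) and chr13:22227735-22228088 (50 and 34). The other regions called in del-cIDR but not KO were chr13:21917680-21917849 (18 and 21 tags) and chr13:23840349-23840726 (8 and 8), each called in WT replicate 1 too.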

How the data were processed

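The authors deposited 1 peak list per library, with replicates not pooled. The submitters' processing notes name the build GRCm39 and the tools BWA, MACS2, fastp, Picard, featureCounts and SAMtools; no settings, and nothing on shifting reads to the cut site, are given in these notes. Each deposited peak has a fold (a ratio of summit pileup to local background), −log10 p and −log10 q, and a score, which matched the whole part of 10 × −log10 q for at least 99.95% of peaks. From the fold and p the summit height and local background in tags were solved for 1016776 peaks, and 100% of heights were whole within 0.1 tags. Peaks on the spike-in sequence (1679 and 1568 in WT, 2082 and 1977 in KO, 1199 and 1104 in del-cIDR) were left out and not used for scaling; their numbers differed between genotypes without overlap. Mouse peaks were merged at 1 bp. Heights were scaled by the list's median over regions called in all 6 libraries. Python 3.11.15 with numpy 2.4.6, pandas 2.3.3, scipy 1.17.1 and matplotlib 3.10.9 was used, and the scripts were tested on simulated data.

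The windows and lists were chosen with earlier results of these data known. Regions were named where both libraries of a genotype called them and both of another did not, or where they had one of the 3 largest differences without overlap in a direction and comparison; the tallest, the lowest and the regions lower in KO by at least 0.5 log2 were added after their values were seen. The counts of histone promoters with a peak, the peaks of the listed genes and the cell type markers, all planned, need a GRCm39 annotation and are not reported here. Replicate numbers did not pair the libraries.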

Additional observations from a re-analysis of the deposited data

How the results depend on the processing

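No median difference in height changed sign under the settings tried, but the balance of counts did: 13 regions were above and 12 below WT in KO with scaling to autosomes other than 6, 8 and 11, 15 and 12 without WT replicate 1, and 14 and 12 without KO replicate 2, and the counts were equal with −log10 q of at least 5 (8 each) and for regions averaging 20 tags or more (10 each). Calls in KO but not del-cIDR outnumbered the reverse without KO replicate 2 (15 and 9). With peaks of −log10 q of at least 5, calls in KO but not WT numbered 2 and in KO but not del-cIDR 1, regions below WT in KO 8, and regions above KO in del-cIDR 6; median width was 426 bp in WT and 408 bp in KO, and median spacing 2939.5 bp in WT and 3308 bp in del-cIDR. With lists of equal length (150680 peaks), calls in WT but not KO numbered 7, in KO but not WT 10 and in del-cIDR but not WT 4, so gains in KO outnumbered losses; spacing was 2980.5 bp in WT and 3211 bp in del-cIDR. With the deposited fold in place of height, the median differences were 0.0626 (KO minus WT), 0.00508 (del-cIDR minus WT) and -0.0351 (del-cIDR minus KO), and the counts of at least 0.5 log2 were 3 above and 9 below WT in KO and 1 above and 0 below WT in del-cIDR. Scaled to chromosomes 13 and 3, the KO minus WT and del-cIDR minus KO medians were 0.23 and -0.12. Chosen after seeing the data, scaling to autosomes other than 6, 8 and 11 gave 0.24 and -0.17 and 10 regions below KO in del-cIDR, and a limit of 1 log2 left 0 above and 3 below WT in KO, 0 and 0 in del-cIDR, and 4 above and 0 below KO in del-cIDR.

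Leaving out each library in turn leaves a genotype with 1 library, so call counts grow by construction. Calls in WT but not KO ranged from 11 to 32, the reverse from 4 to 11, WT but not del-cIDR from 5 to 24, the reverse from 1 to 9, KO but not del-cIDR from 6 to 15 and the reverse from 7 to 21. The highest of these came without WT replicate 2 (32, 24), KO replicate 1 or 2 (15) and del-cIDR replicate 2 (9, 21), and the 11 came without WT replicate 2 or KO replicate 2. Median differences ranged from 0.13 to 0.21 (KO minus WT), 0.0643 to 0.133 (del-cIDR minus WT) and -0.0958 to -0.0535 (del-cIDR minus KO). Regions above WT in del-cIDR ranged from 3 to 10 (10 without WT replicate 1, 6 without del-cIDR replicate 1, 5 without KO replicate 2) and those below from 2 to 5 (5 without del-cIDR replicate 2). Median width ranged from 386.5 to 404 bp in WT and from 367 to 377.5 bp in KO.

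Under the replicate block, which takes differences between same-numbered libraries, the median differences were 0.19, 0.09 and -0.10, equal to the main values by construction. The counts could only stay or grow, and no count changed. Deviations of same-numbered libraries correlated at -0.000234 (WT with KO), -0.0121 (WT with del-cIDR) and 0.00544 (KO with del-cIDR) across 99216 regions, so the numbers were not taken as pairs. Other distances from the start, a stricter q and equal lists for histone gene promoters were not run. KO replicate 2 is the shallowest list; the part of depth in its missing calls was not tested.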
